A study of Mus musculus with 8 samples.

Results

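Macrophages that adhered to the adipocytes of chow-fed mice (ARMs, adhesion-related macrophages) were compared with the macrophages of the stromal vascular fraction (SMs, stromal macrophages, labelled NARM) across all genes. The 4 libraries on chow diet were taken of the 8 in the series, 2 of ARMs (ARM1 and ARM2) and 2 of SMs (SM1 and SM2). All 4 came from epididymal white adipose tissue (eWAT) of WT C57BL/6J mice on normal chow, without any other treatment, and each library held the RNA of pooled mice, whose ages the labels do not give. ARMs were freed from the floating adipocyte layer after collagenase digestion and SMs were taken from the pelleted cells, and both were purified by FACS, so the origin of the cells and the way they were released differed together between the groups. Of 16436 genes listed, 12441 passed the filter on low counts and were tested.

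Adipose tissue macrophages clear dying adipocytes, take up lipid and iron, and secrete chemokines, cytokines, growth factors and proteases. Chemokines are small secreted proteins that attract leukocytes through receptors on their surface, and many of their genes respond to NF-κB and AP-1, transcription factors that are switched on by inflammatory signals. The matrix around adipocytes (collagens, proteoglycans, elastic fibers) is known to be made mainly by fibroblasts and their progenitors, and the surface of eWAT is covered by mesothelium. In RNA from sorted cells, fewer cells of a type and less RNA per cell cannot be told apart.

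The libraries held 14508818 to 16319037 counts, and their 10 largest genes held between 6.58% and 7.12% of the counts. Libraries of a group were not the same within sampling noise (chi-square averaged over genes 10.1 for ARM1 against ARM2 and 8.06 for SM1 against SM2), and their biological coefficient of variation was 8.61%. Nothing in the labels gives the make-up of the pools, so the p-values measure the spread between these libraries. An exact two-sided permutation test of 2 libraries against 2 cannot go below 0.333, and every adjusted p below comes from the quasi-likelihood test of edgeR, adjusted over all genes tested by the Benjamini-Hochberg method. The cells carried the transcripts of macrophages in every library. Lyz2, the lysozyme gene of myeloid cells, had an FPKM (fragments per kilobase of transcript, scaled to the depth of the library) of 5960 and 6103 in ARM1 and ARM2 and of 6034 and 6136 in SM1 and SM2 (its counts were not whole, so that reads were shared with a near-identical gene), and C1qa, a complement gene typical of tissue macrophages, 2772 and 2861 against 3121 and 2960.

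ARMs expressed far more genes at a higher level than at a lower level. Calls required more than a 1.5-fold difference together with an adjusted p below 0.05. By that rule 442 genes were called higher in ARMs (3.55% of those tested) and 16 were called lower (0.129%). The median log2 fold change of all genes tested was -0.016, and 46.5% of them lay above 0. Most of the genes called higher were low in SMs. The mean SM FPKM was under 1 for 175 of the 442, from 1 to 10 for 207, from 10 to 100 for 51 and 100 or more for 9, and the median log2 fold change fell along that order from 1.57 to 1.17, 0.75 and 0.71. Besides the 442 and 16, another 90 genes passed the adjusted p in the higher direction and 41 in the lower direction with a change of 1.5-fold or less, so that 4.28% of the genes tested were higher and 0.458% lower at any fold.

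**Figure D1:**
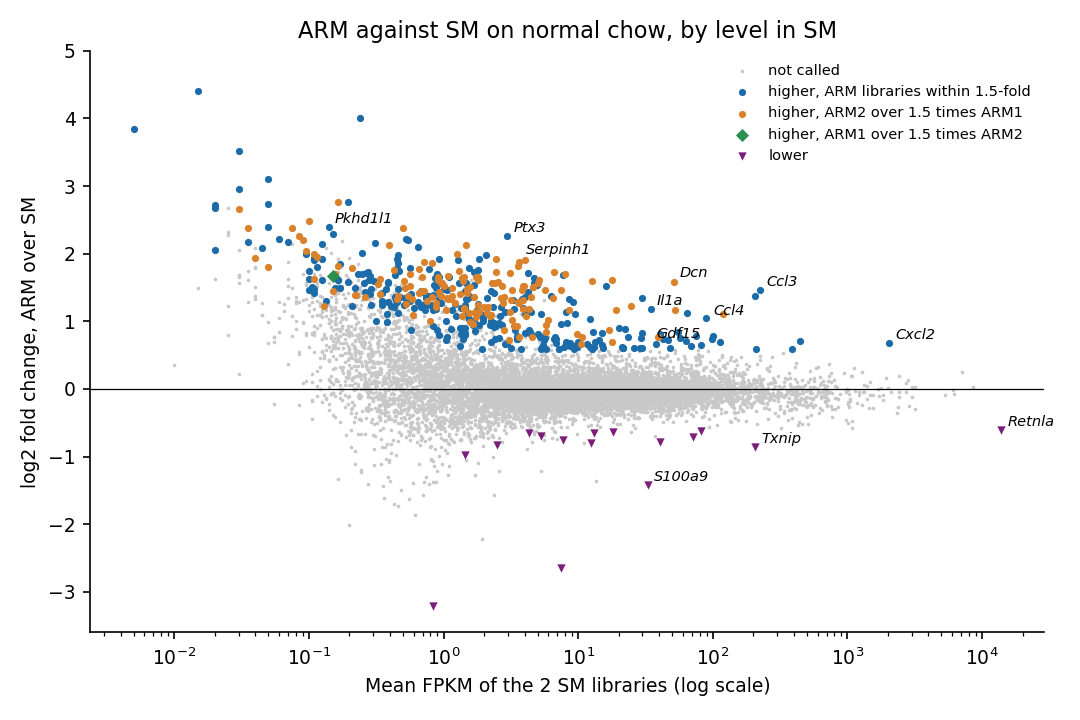
Each point is a gene tested, with the mean FPKM of the 2 SM libraries on the horizontal axis (log scale) and the log2 fold change of ARM over SM on the vertical axis. Genes called higher are blue where the ARM libraries lay within 1.5-fold of each other, orange where ARM2 was over 1.5 times ARM1 and green where ARM1 was over 1.5 times ARM2, genes called lower are purple triangles, and the orange points thin out at high SM levels.

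The ARM libraries did not carry these differences equally. ARM2 was above ARM1 for 401 of the 442 genes called higher (90.7%), against 52.0% of all genes tested, and was over 1.5 times ARM1 for 152 of them (34.4%, against 4.82%). The SM libraries leaned the same way by less, with SM2 above SM1 for 74.7% of the 442 genes, against 49.4% of all genes tested, and a median log2 ratio of 0.20. ARM1 was over 1.5 times ARM2 for 1 gene, 0610010B08Rik (FPKM 0.63 and 0.37 in ARM1 and ARM2, 0.13 and 0.17 in SM1 and SM2), a call that was lost without ARM1, SM1 or SM2. ARM1 alone was over 1.5 times the higher SM library for 346 of the 442 genes and ARM2 alone for 426. The lead of ARM2 belonged to the genes of low and middling level. Its median log2 ratio to ARM1 was 0.47 and 0.52 among called genes with a mean SM FPKM under 1 and from 1 to 10, 0.22 from 10 to 100 and -0.048 at 100 or more. Over all genes tested the medians at the same levels were 0.22, 0.022, -0.014 and -0.034, so the lowest level leaned to ARM2 also outside the calls. With ARM2 left out, 171 genes were called higher, 163 of them among the 442, and 383 of the 442 kept a fold change over 1.5. With ARM1 left out, 617 were called, and with SM1 left out 239.

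Several chemokines were higher in both ARM libraries, and Ccl3 had the smallest p of all genes tested. Ccl3 and Ccl4, which attract monocytes and T cells, were the chemokines of the CC family with the smallest p. Ccl3 (Entrez 20302) had an FPKM of 622 and 617 in ARM1 and ARM2 and of 219 and 228 in SM1 and SM2, a log2 fold change of 1.47 (SE 0.10, adjusted p = 2e-06). Ccl4 had 602 and 479 against 221 and 191 (log2 fold change 1.38, SE 0.12, adjusted p = 2.2e-05). The groups lay far apart for both genes, and without ARM2 the log2 fold changes were 1.46 and 1.52. Of the 16 CC chemokines tested, 4 were called higher and none lower, with a median log2 fold change of 0.036. The other 2 were Ccl11, the eosinophil attractant eotaxin, at FPKM 15.1 and 29.0 against 5.24 and 7.92 (log2 fold change 1.73, adjusted p = 0.0011), where ARM2 led, and Ccl21a, a ligand of Ccr7 made by lymphatic endothelium. The abundant Ccl2, Ccl7 and Ccl6 did not pass the test, with Ccl2 at a log2 fold change of 0.25 (adjusted p = 0.29), Ccl7 at 0.31 (0.30) and Ccl6 at -0.35 (0.21).

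Of the 11 chemokines of the CXC and CX3C families tested, 7 were called higher and none lower, with a median log2 fold change of 0.71. The genes for 3 ligands of Cxcr2, the neutrophil-attracting Cxcl1, Cxcl2 and Cxcl3, all rose. Cxcl2 was among the most abundant transcripts, with an FPKM of 3329 and 3179 in ARM1 and ARM2 and of 1979 and 2070 in SM1 and SM2 (log2 fold change 0.68, SE 0.10, adjusted p = 0.00076). Cxcl1 had 779 and 673 against 489 and 396 (0.71, SE 0.12, adjusted p = 0.0018), and Cxcl3 had 119 and 163 against 68.2 and 61.5 (1.12, SE 0.13, adjusted p = 0.00021). In each of these genes both ARM libraries were above both SM libraries, as in every gene called higher. Over all genes tested, the groups did not overlap, in either direction, in 44.0%. Cxcl9 and Cxcl10, interferon-inducible ligands of Cxcr3 that attract T cells, also rose, Cxcl10 from 112 and 90.0 in SM1 and SM2 to 197 and 151 in ARM1 and ARM2 (log2 fold change 0.78, adjusted p = 0.0018). Cxcl12 and Pf4, which are also abundant in these cells, had log2 fold changes of -0.23 (adjusted p = 0.28) and -0.23 (adjusted p = 0.26). Without ARM2, 4 of the 7 CXC calls were left (Cxcl1, Cxcl2, Cxcl3 and Cxcl10), and without SM2 the call of Cxcl1 was lost.

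The stretch just upstream of the start site is shown for 7 of the genes that rose in both ARM libraries. Among them Cxcl1, Cxcl2 and Cxcl3 lie on chromosome 5 and moved together. Pf4 (chr5:90772435-90773383), which was not called (log2 fold change -0.23), lies nearer to Cxcl3 (chr5:90786101-90788093) than Cxcl1 does (chr5:90891245-90893121). The sequences are from RefSeq on GRCm38.p6 (mm10), 150 bases that end at the base before a start site, on the gene's strand. For Il1a and Plaur that start lies inside the gene (chr2:129299609-129310186 and chr7:24460937-24475970), so these 2 windows are not upstream of the whole gene. Capitals mark the letters GGGANNTTCC (1 strict form of the NF-κB motif) or TGANTCA (the AP-1 motif) on either strand. Looser forms of these motifs were not searched for, so letters left small can still fit one.
Cxcl1, chr5:90891095-90891244, plus strand: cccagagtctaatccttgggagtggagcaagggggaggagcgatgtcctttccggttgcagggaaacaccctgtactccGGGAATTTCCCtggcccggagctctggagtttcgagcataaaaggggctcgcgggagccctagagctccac
Cxcl2, chr5:90903749-90903898, plus strand: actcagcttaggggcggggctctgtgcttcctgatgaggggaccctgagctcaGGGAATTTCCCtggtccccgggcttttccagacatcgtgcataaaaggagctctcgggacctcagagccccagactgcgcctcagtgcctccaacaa
Cxcl3, chr5:90785951-90786100, plus strand: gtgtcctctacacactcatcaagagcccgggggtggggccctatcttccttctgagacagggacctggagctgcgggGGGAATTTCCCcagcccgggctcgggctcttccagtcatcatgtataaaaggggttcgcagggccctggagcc
Cxcl10, chr5:92348890-92349039, minus strand: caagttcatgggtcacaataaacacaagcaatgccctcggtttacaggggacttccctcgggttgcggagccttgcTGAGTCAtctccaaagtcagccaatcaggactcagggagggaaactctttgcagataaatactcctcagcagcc
Il1a, chr2:129309973-129310122, minus strand: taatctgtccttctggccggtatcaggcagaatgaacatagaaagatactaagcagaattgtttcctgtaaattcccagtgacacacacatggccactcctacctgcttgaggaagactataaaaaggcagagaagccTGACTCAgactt
Plaur, chr7:24462333-24462482, plus strand: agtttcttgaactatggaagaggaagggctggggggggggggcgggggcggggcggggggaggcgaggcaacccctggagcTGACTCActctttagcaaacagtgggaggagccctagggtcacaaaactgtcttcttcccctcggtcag
Ccl3, chr11:83649379-83649528, minus strand: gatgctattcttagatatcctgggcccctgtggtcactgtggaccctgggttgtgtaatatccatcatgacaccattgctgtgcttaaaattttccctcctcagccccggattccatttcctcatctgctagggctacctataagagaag
Cxcl1, Cxcl2 and Cxcl3 held the same 11 letters, GGGAATTTCCC, beginning 71, 97 and 73 bases before the start site, where 2 matches to the NF-κB letters overlap. Those letters were found in the same window of 0.781% of 27025 promoters, of 6 of the 315 genes called higher that had a promoter in the table (1.9%), and of 3 of the 47 with a mean SM FPKM of 10 or more (6.38%), which were these 3 genes, against 1.04% of the 4732 tested genes at that level. The AP-1 letters were in 4.26% of all promoters, 6.35% of those of genes called higher, and 12.8% of the 47, against 2.7% at that level. Among the genes inspected singly, the 7 shown include every gene with a match to these letters. The same window of Nlrp3, Gdf15, Id2 and Ccrl2, also called higher, held no match to them. Nor did that of Txnip, Arrdc3, Dusp6 and Retnla, called lower. Of all 15 genes called lower that had a promoter, 1 held the NF-κB letters and 1 the AP-1 letters (6.67% each). These are matches of letters and not measured sites.

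Among the cytokines, a few single genes were called. Il1a, an interleukin-1 released by damaged and activated cells, had an FPKM of 77.2 and 78.9 in ARM1 and ARM2 and of 35.3 and 33.7 in SM1 and SM2 (log2 fold change 1.18, SE 0.10, adjusted p = 1.6e-05). Il1rn, the antagonist of the same receptor, had 94.0 and 104 against 51.4 and 58.7 (0.85, SE 0.10, adjusted p = 0.00024). For Il1b the ARM libraries disagreed, with 105 and 171 against 115 and 122 (0.21, adjusted p = 0.64). Of 19 interleukins and colony-stimulating factors, 3 were called higher (Il1a, Il1rn and the macrophage growth factor Csf1, the last lost without ARM2) and none lower, with a median of 0.18. Il10, which restrains macrophage activation, passed the adjusted p at under 1.5-fold (log2 fold change 0.50, adjusted p = 0.0047), and Il6 did not pass (0.18, adjusted p = 0.54).

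Among 23 genes of the NF-κB response, 4 were called higher and none lower, 20 lay above 0 and the median log2 fold change was 0.23. Tnf, a leading cytokine of activated macrophages, had an FPKM of 587 and 584 in ARM1 and ARM2 and of 409 and 369 in SM1 and SM2 (log2 fold change 0.59, SE 0.10, adjusted p = 0.0022). Tnfaip2, induced by TNF, and Ptgs2, the inducible cyclooxygenase, were at 0.75 (adjusted p = 0.00054) and 0.65 (adjusted p = 0.0026). The inhibitor Nfkbia was at 0.17 (adjusted p = 0.49). Without ARM2 only Tnfaip2 kept its call in this list, and without SM1 the calls were those of Tnf and Tnfaip2. The call of Tnf was also lost without SM2, where its log2 fold change was 0.52. Nlrp3, the sensor of the inflammasome that activates interleukin-1β, had 177 and 192 against 114 and 113 (0.70, SE 0.10, adjusted p = 0.00055), and Clec4d, a C-type lectin that senses fungi and mycobacteria, 45.7 and 42.7 against 29.6 and 28.5 (0.61, adjusted p = 0.0032). These were the 2 members called among 33 pattern recognition receptors, whose median was 0.0085, and the call of Clec4d was lost without ARM1 or SM2. The receptors Cd14 and Tlr2, which sense bacterial products, were at 0.33 (adjusted p = 0.086) and 0.24 (adjusted p = 0.22).

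Of 12 chemokine receptors 3 were called higher and none lower, with log2 fold changes that ran from -1.08 to 1.74 around a median of 0.015. Ccrl2, an atypical receptor that binds chemerin, had an FPKM of 118 and 142 in ARM1 and ARM2 and of 71.3 and 79.0 in SM1 and SM2 (log2 fold change 0.79, SE 0.11, adjusted p = 0.00054). The gene for chemerin itself, Rarres2, had 10.1 and 17.0 against 3.08 and 4.24 (1.88, SE 0.29, adjusted p = 0.0012). Ackr3, which scavenges Cxcl12, was at 4.67 and 6.62 against 1.64 and 1.72, and Cx3cr1, the fractalkine receptor, at 7.87 and 8.85 against 4.82 and 5.71 (log2 fold change 0.59, adjusted p = 0.020), a call lost without ARM2 or without SM1. Ccr2, the receptor of recruited monocytes, was at 63.8 and 59.9 against 64.1 and 72.7 (-0.14, adjusted p = 0.58).

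Several secreted growth factors, proteases and regulators rose by a similar amount in ARM1 and ARM2. Gdf15, a cytokine induced by cell stress, had an FPKM of 170 and 203 in ARM1 and ARM2 and of 96.6 and 82.5 in SM1 and SM2 (log2 fold change 1.06, SE 0.12, adjusted p = 0.00017). Hbegf, a ligand of the EGF receptor, had 71.1 and 70.2 against 38.9 and 41.8 (0.81, SE 0.10, adjusted p = 0.00021). Of 30 growth factors tested, 10 were called higher and none lower (median 0.66), and the remaining calls included the low genes Fgf1, Gdf10, Angptl2 and Tgfb3. Without ARM2, 4 of the 30 were called, and without SM1 5.

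The urokinase system, which activates plasminogen at the cell surface, was higher at both of its ends. The receptor Plaur had an FPKM of 107 and 106 in ARM1 and ARM2 and of 69.9 and 67.5 in SM1 and SM2 (log2 fold change 0.63, SE 0.09, adjusted p = 0.00083). The enzyme Plau had 353 and 278 against 220 and 199 (0.59, adjusted p = 0.0067), near the threshold of 1.5-fold, and its call was lost without ARM1 or without SM2. F3, tissue factor, which starts blood clotting, was at 8.22 and 9.19 against 4.01 and 4.09 (1.10, adjusted p = 0.00082). Mmp12, the elastase of macrophages, had 102 and 107 against 70.5 and 55.2 (0.71, adjusted p = 0.0016, lost without SM2), and the collagenase Mmp13 had 10.3 and 9.53 against 4.26 and 4.72 (1.14, SE 0.14, adjusted p = 0.00021). Spp1, osteopontin, a secreted protein that binds integrins, had 26.8 and 23.9 against 11.6 and 13.1 (1.04, SE 0.13, adjusted p = 0.00026). The FPKM of ARM1 was above that of ARM2 in Plaur, Plau, Mmp13 and Spp1, unlike in most genes called higher.

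Several regulators and genes of stress responses were called. Id2, a helix-loop-helix inhibitor of transcription, had an FPKM of 127 and 130 in ARM1 and ARM2 and of 81.5 and 81.7 in SM1 and SM2 (log2 fold change 0.65, SE 0.09, adjusted p = 0.00071). Srxn1, sulfiredoxin, which restores oxidized peroxiredoxins, had 40.9 and 38.8 against 24.2 and 22.8 (0.77, adjusted p = 0.0003), and Steap4, a metalloreductase, 21.1 and 25.02 against 11.7 and 13.95 (0.85, adjusted p = 0.00068). Among 25 immediate-early genes, which respond within minutes to growth and stress signals, Fosl1 (counts not whole) and Myc were called higher and none lower, and the call of Myc was lost without ARM2 or SM1. In the other direction 4 passed the adjusted p at under 1.5-fold, Fos and, named after their values were seen, Klf2, Jun and Ier2 (log2 fold changes -0.53, -0.49 and -0.46), and 2 of the list were called lower without ARM2 and 1, Fos, without SM1. Fos was at 698 and 750 against 1058 and 1100 (log2 fold change -0.57, adjusted p = 0.0029), and Fosl1 at 25.2 and 28.5 against 15.4 and 14.8 (0.83, adjusted p = 0.00072). Egr1 and Junb were at -0.11 (adjusted p = 0.71) and -0.0014 (adjusted p = 0.998). In the interferon-stimulated list 2 of 33 genes were called higher (Ifi205 at 1.28, with counts that were not whole and so shared with near-identical genes, and Oasl1 at 0.61, lost without ARM1 or SM2) and none lower, with a median of -0.062. Irf1, a factor of the interferon response, passed the adjusted p at -0.36 (adjusted p = 0.042).

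**Figure D2:**
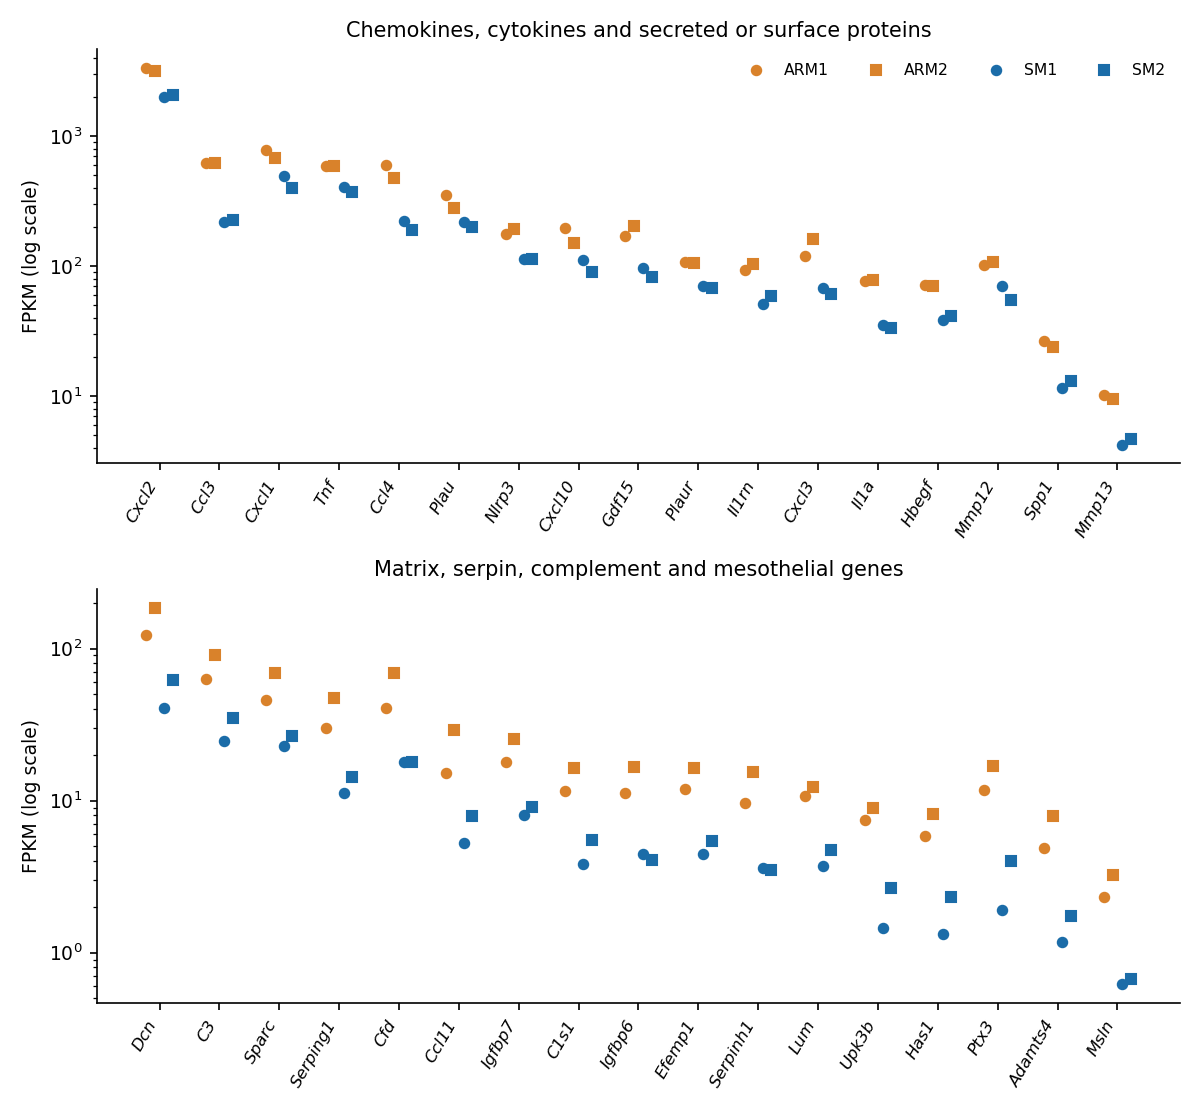
The FPKM of named genes is drawn for each library (log scale), with ARM1 and ARM2 in orange and SM1 and SM2 in blue, circles for replicate 1 and squares for replicate 2. In the upper panel the ARM libraries lie within 1.5-fold of each other, as in Ccl3 at 622 and 617, and in the lower panel ARM2 lies above ARM1 in every gene shown, as in Dcn at 122.8 and 185.

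Many genes of the extracellular matrix and of non-macrophage cells were called higher, with ARM2 above ARM1 in the median. In the lists of matrix and stromal genes, which overlap in part with the cell type markers, 94 of 168 genes tested were called higher (56.0%), and those called had a median log2 ratio of ARM2 to ARM1 of 0.59 and a median SM FPKM of 1.54. In the chemokine, cytokine, receptor, NF-κB and interferon lists 27 of 177 were called higher (15.3%). Those called had a ratio of 0.23 and a median SM FPKM of 29.0. Of all genes tested, 3.55% were called higher. These ratios were near those of all genes called higher at like levels. The latter were 0.52 at a mean SM FPKM of 1 to 10 and 0.22 at 10 to 100. Markers of fibroblasts, mesothelium and adipocytes were among the genes called higher. Of the dendritic cell, neutrophil, mast cell and eosinophil, B cell, Schwann cell and erythroid markers tested none was called higher by edgeR, DESeq2 or limma. Their medians ran from -0.97 to 0.10, and 1 dendritic cell and 1 neutrophil marker were higher at an unadjusted p under 0.05. Of 7 monocyte markers tested, 2 were called higher by edgeR, 2 by DESeq2 and 1 by limma (median -0.14). The only T and NK cell marker tested was at 0.70 and was not called. All 17 fibroblast and progenitor markers tested lay above 0 and 13 were called higher (median log2 fold change 1.31), and their summed level in CPM (counts scaled to the depth of the library) was 826 and 1173 in ARM1 and ARM2 and 352 and 421 in SM1 and SM2. The 11 mesothelial markers listed summed to 46.5 and 61.8 against 12.3 and 16.9, and of the 10 tested 8 were called higher (median 1.96). The 14 adipocyte markers listed summed to 320 and 498 against 208 and 237, and of the 13 tested 9 were called higher (median 1.31), 3 without ARM2 and 4 without SM1. The 14 vascular endothelial markers summed to 56.9 and 118 against 47.8 and 57.5. No member of these lists was at 0 in all 4 libraries. The 16 macrophage markers summed to 29140 and 29830 against 30910 and 30000. What part the RNA of such cells had in the matrix genes was not tested.

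The small leucine-rich proteoglycans and their relatives, which coat and space collagen fibrils, were higher as a group. Of 20 tested, 13 were called higher and none lower, all 20 lay above 0 and the median log2 fold change was 1.33. Dcn, decorin, had an FPKM of 122.8 and 185 in ARM1 and ARM2 and of 40.4 and 62.3 in SM1 and SM2 (log2 fold change 1.59, SE 0.19, adjusted p = 0.00021), and Lum, lumican, 10.7 and 12.4 against 3.74 and 4.75 (1.44, SE 0.16, adjusted p = 0.00017). Has1, which makes hyaluronan, was at 5.82 and 8.10 against 1.32 and 2.34 (1.93, SE 0.25, adjusted p = 0.00031). The members that macrophages make in quantity moved less. Srgn, serglycin of secretory granules, was at 837 and 722 against 723 and 712 (0.11, adjusted p = 0.70), and the surface proteoglycan Sdc4 at 232 and 221 against 152 and 174 (0.47, adjusted p = 0.012).

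Elastic fiber and crosslinking genes showed 14 of 24 called higher (median 1.08), and matricellular and basement membrane glycoproteins 12 of 19 (median 1.14), with none lower in either. Efemp1, a fibulin, had an FPKM of 11.97 and 16.5 in ARM1 and ARM2 and of 4.46 and 5.39 in SM1 and SM2 (log2 fold change 1.54, SE 0.17, adjusted p = 0.00017). Lox and Loxl2, the oxidases that crosslink collagen and elastin, were at 1.66 and 1.86 (adjusted p = 0.00049 and 0.00026), though Loxl2 had counts that were not whole. Tnxb, a tenascin, and Sparc, a collagen-binding glycoprotein, were at 1.61 and 1.22 (adjusted p = 0.00019 and 0.00028). Tgfbi, Fn1 and Ecm1, which were abundant in both cell types, did not pass, at -0.11, 0.40 and 0.30 (adjusted p = 0.72, 0.082 and 0.21). Metalloproteinases and their inhibitors had 12 of 24 called higher and none lower (median 1.005), led by Adamts4, which cleaves proteoglycans, at 4.91 and 7.87 against 1.18 and 1.74 (2.12, SE 0.23, adjusted p = 0.00017). Without ARM2 the calls fell to 6 of 24 in the elastic fiber list, 7 of 19 among matricellular genes and 7 of 24 among metalloproteinases, and 9 of 20 proteoglycans were called.

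Serpins, complement factors and IGF-binding proteins held genes led by ARM2 and abundant macrophage genes that did not pass. The coagulation list also held the called genes Plaur and F3 (above), with ARM2 at 1.0 and 1.13 times ARM1. Its median log2 ratio of ARM2 to ARM1 was 0.23. Of 23 genes of coagulation, fibrinolysis and serpins, 12 were called higher and none lower (median 0.59, 7 calls without ARM2). Serping1, the inhibitor of C1 esterase, had an FPKM of 29.9 and 47.2 in ARM1 and ARM2 and of 11.2 and 14.2 in SM1 and SM2 (log2 fold change 1.59, SE 0.18, adjusted p = 0.00019), and Serpinh1, the collagen chaperone, 9.61 and 15.4 against 3.61 and 3.50 (1.82, SE 0.20, adjusted p = 0.00017). F13a1, a crosslinking clotting factor of resident macrophages, was at 1753 and 1518 against 1982 and 1695 (-0.17, adjusted p = 0.59). Of 19 complement genes 3 were called higher, C3, the central component, at 63.1 and 91.1 against 24.7 and 34.8 (1.35, SE 0.17, adjusted p = 0.0003), Cfd, which adipocytes secrete, at 40.9 and 69.3 against 17.8 and 18.0 (1.61, adjusted p = 0.00024), and C1s1, a C1 protease, at 1.57 (adjusted p = 0.0002, counts not whole). Without ARM1 5 complement genes were called. The C1q genes C1qa, C1qb and C1qc were at -0.11, -0.047 and -0.044 (adjusted p = 0.70, 0.90 and 0.91).

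Among the binding proteins of insulin-like growth factors, 3 were called higher. Igfbp6 had an FPKM of 11.3 and 16.7 in ARM1 and ARM2 and of 4.42 and 4.09 in SM1 and SM2 (log2 fold change 1.71, SE 0.21, adjusted p = 0.00024), and Igfbp7 17.9 and 25.3 against 8 and 9.09 (1.33, SE 0.18, adjusted p = 0.00045). Igf1 was at 80.1 and 74.0 against 74.0 and 89.0 (-0.078, adjusted p = 0.83) and Igfbp4 at 291 and 320 against 320 and 341 (-0.11, adjusted p = 0.70). In all, 4 of 11 IGF genes were called higher and none lower (median 0.40), the others being Igfbp5 and the receptor Igf2r, and without ARM2 2 were called.

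Genes of developmental signals were called at low levels. Of 15 Wnt genes 4 were called higher (median 0.43), Sfrp1, Tcf7l1, Fzd4 and Wnt2b, and without ARM2 none of the 15 was called. Of 33 axon guidance genes 5 were called higher (median 0.41), Slit3, Ntn1, Sema5a, Sema3c and Sema4d, and without ARM2 none was called. Without SM1, 1 Wnt gene and 2 axon guidance genes were called, and without SM2 2 and 3. Among those that lost the call without ARM2, Sema5a was at 1.30 on the log2 scale and at 1.23 without ARM2, and Fzd4 at 1.24 and 1.06. Slit3, a secreted repellent, was at FPKM 3.29 and 5.28 in ARM1 and ARM2 against 1.58 and 2.05 in SM1 and SM2 (log2 fold change 1.24, SE 0.21, adjusted p = 0.0022). Among 15 HOX and mesenchymal transcription factors, 3 were called higher (median 1.11), Tcf21, a factor of fibroblasts and adipocyte progenitors, at 3.16 and 3.93 against 0.99 and 0.87 (1.92, SE 0.33, adjusted p = 0.0025), the mesothelial Wt1 at 1.38 and 2.30 against 0.50 and 0.62 (1.70, adjusted p = 0.0048), and Ebf2 at 1.41 (adjusted p = 0.025). Without ARM2 only the call of Tcf21 was left among the 3, and without ARM1 6 of the 15 were called.

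Mesothelial and lymphatic transcripts were low but higher in both ARM libraries. Upk3b, a uroplakin of mesothelium, had an FPKM of 7.45 and 8.96 in ARM1 and ARM2 and of 1.46 and 2.68 in SM1 and SM2 (log2 fold change 1.98, SE 0.23, adjusted p = 0.0002), and Gpm6a 1.83 and 1.84 against 0.45 and 0.47 (1.98, SE 0.29, adjusted p = 0.00074). Msln, mesothelin, was at 2.31 and 3.23 against 0.62 and 0.67 (2.09, SE 0.31, adjusted p = 0.00078). Without ARM2, 5 of the 10 mesothelial markers were called. Of 5 lymphatic endothelial genes tested, 3 were called higher, with counts in SMs too low for a fold change to be given. Ccl21a had 42 and 42 counts in ARM1 and ARM2 and 0 and 5 in SM1 and SM2, Mmrn1 31 and 17 against 0 and 2, and Reln 18 and 14 against 0 and 2. The counts of Ccl21a were not all whole. Without SM1 the call of Ccl21a alone was left, and without ARM2 that of Reln was lost. Prox1, the factor that defines lymphatic endothelium, had 21 and 27 counts against 23 and 23 (adjusted p = 0.97). Of 14 vascular endothelial markers all lay above 0 and 1, Tek, was called. Cldn5, a tight junction gene of endothelium, was at FPKM 2.67 and 8.18 against 2.23 and 2.39 (adjusted p = 0.10), near the SM level in ARM1, and without ARM1 9 of the 14 were called, without SM2 2, and without ARM2 or SM1 none.

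Of the 20 genes called higher with the smallest p outside the adhesion and lipid lists, 4 belonged to none of the groups above. Pkhd1l1, a large membrane protein of the fibrocystin family, had an FPKM of 0.64 and 0.82 in ARM1 and ARM2 and of 0.12 and 0.16 in SM1 and SM2 (log2 fold change 2.39, SE 0.25, adjusted p = 0.00016). Ptx3, a secreted pentraxin that binds microbes, had 11.7 and 16.8 against 1.90 and 4.02 (2.25, SE 0.25, adjusted p = 0.00017). Enpp2, autotaxin, which makes lysophosphatidic acid, had 5.48 and 5.24 against 1.53 and 1.58 (1.79, SE 0.17, adjusted p = 4e-05), even between the ARM libraries. Gfpt2, an enzyme of hexosamine synthesis, had 7.4 and 11.1 against 2.25 and 2.63 (1.92, SE 0.19, adjusted p = 8.9e-05).

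The 16 genes called lower in ARMs included several regulators that respond to hormones and nutrients. Txnip (Entrez 56338), an alpha-arrestin that is induced by glucose and restrains its uptake, had an FPKM of 118 and 108 in ARM1 and ARM2 and of 207 and 206 in SM1 and SM2 (log2 fold change -0.86, SE 0.10, adjusted p = 0.00017). Arrdc3, an alpha-arrestin of the same family, had 7.22 and 7.18 against 12.2 and 12.8 (-0.80, SE 0.11, adjusted p = 0.00049), and Tsc22d3, the glucocorticoid-induced leucine zipper, 42.8 and 43.9 against 64.3 and 78.9 (-0.72, SE 0.11, adjusted p = 0.001). These 3 were the members called lower among 19 glucocorticoid, metallothionein and glucose-sensing genes, of which none was called higher and whose median was 0.035. Mt1 and Mt2, the metallothioneins that glucocorticoids and metals induce, were at 0.043 and 0.095 (adjusted p = 0.90 and 0.74). The ARM libraries lay together below both SM libraries for Txnip, Arrdc3 and Tsc22d3, and the call of Tsc22d3 was lost without SM2.

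Dusp6, a phosphatase that switches off ERK and is induced by it, had an FPKM of 23.5 and 23.01 in ARM1 and ARM2 and of 41.2 and 39.4 in SM1 and SM2 (log2 fold change -0.79, SE 0.10, adjusted p = 0.00024). Retnla, a secreted protein that interleukin-4 induces in alternatively activated macrophages, was the most abundant gene called lower, at 8993 and 9227 against 13033 and 14608 (-0.61, SE 0.11, adjusted p = 0.0027). Of 20 genes of alternative activation tested, 2 were called higher and Retnla alone lower (median -0.015), with Mrc1 at -0.035 (adjusted p = 0.93), Mgl2 at -0.045 (adjusted p = 0.90), Clec10a at -0.19 (adjusted p = 0.40) and the chemokine Ccl24 at -0.35 (adjusted p = 0.047). In that list none was called higher and 2 lower without ARM2, 1 higher and 1 lower without SM1, and 3 higher and 1 lower, which was not Retnla, without SM2. The call of Retnla was lost without SM2.

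S100a9, a calcium-binding protein of neutrophils and monocytes, had an FPKM of 6.94 and 18.2 in ARM1 and ARM2 and of 37.8 and 28.4 in SM1 and SM2 (log2 fold change -1.43, SE 0.30, adjusted p = 0.012), and its partner S100a8 1.79 and 9.14 against 15.7 and 11.6 (-1.36, adjusted p = 0.14). ARM1 was the lowest library for both genes, and the call of S100a9 was lost without ARM1. Of 6 neutrophil markers tested, S100a9 was the only one called, 4 lay below 0 (median -0.97), and S100a8 was called too without ARM2. The 10 markers listed summed to 505 and 853 CPM in ARM1 and ARM2 and to 566 and 748 in SM1 and SM2, but Mmp9, which macrophages also make, was 420.1, 737.8, 463.8 and 653.9 of these sums. Among the 6, Csf3r, a receptor of neutrophils and macrophages, was at 26.6 and 32.2 against 20.8 and 24.5 (0.38, adjusted p = 0.098). Zfp84, Homez, Sertad3 and Rubcnl had log2 fold changes of -0.82, -0.98, -0.76 and -0.69 and Ndufa3, a subunit of respiratory complex I, -0.62. The counts of Ppp1ccb, Gm14434, Ppil3 and 4930522L14Rik were not whole, so that their reads were shared with near-identical genes, and Ppp1ccb was at 0, 48, 145 and 162 counts in ARM1, ARM2, SM1 and SM2. Calls were lost without any of the 4 libraries for Homez, Sertad3 and Ndufa3, where the log2 fold changes stayed between -0.997 and -0.59. The call of Rubcnl was lost without ARM2 or SM1. With ARM1 left out 44 genes were called lower, and with SM2 left out 24.

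**Figure D3:**
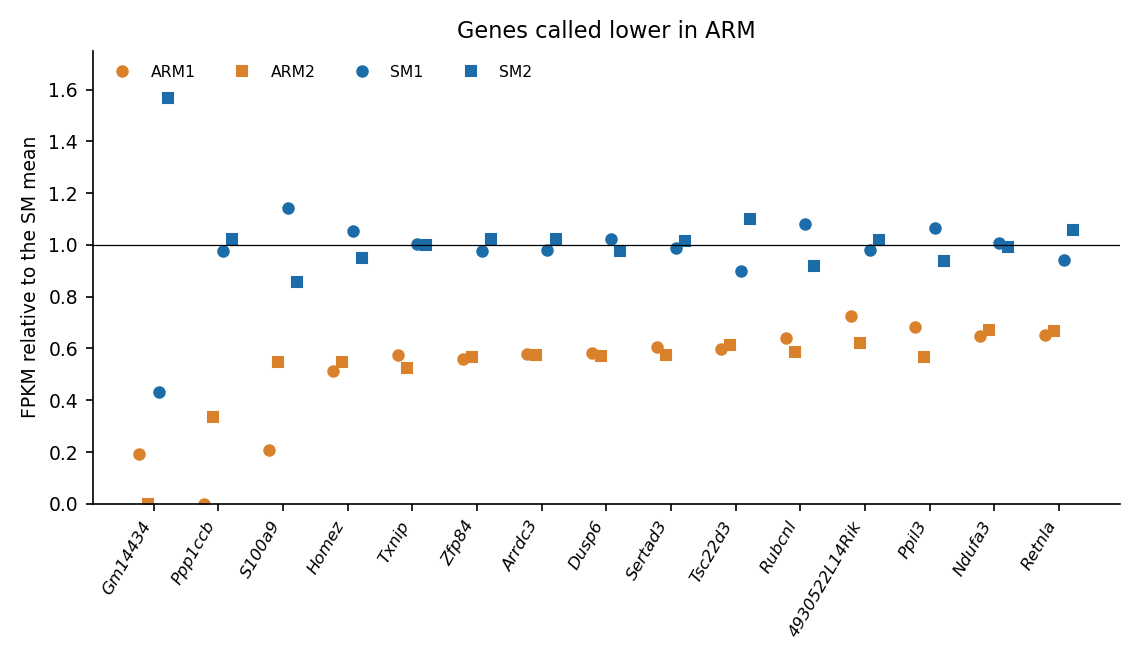
The FPKM of 15 of the 16 genes called lower is drawn for the 4 libraries, divided by the mean of the 2 SM libraries (horizontal line at 1). ARM1 and ARM2 (orange) lie close together in most of them, except Ppp1ccb and S100a9, where ARM1 is the lower, and the SM libraries (blue) of Gm14434 lie far apart.

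The programs that define and run a macrophage differed little between the cell types. Over all 12441 genes tested, 1267 above 0 and 591 below 0 had an unadjusted p under 0.05. Of 16 macrophage markers 1 was called (Cx3cr1, above), and Csf1r, the receptor that macrophages need to survive, was at FPKM 1035 and 1167 in ARM1 and ARM2 and 1109 and 1152 in SM1 and SM2 (log2 fold change -0.036, adjusted p = 0.93). No lysosomal gene of 42 was called by edgeR (3 with an unadjusted p under 0.05, all above 0, 0 called by DESeq2 and 1 by limma), and Ctsb, Psap and Lgmn were at 0.025, 0.11 and -0.0087. No MHC class II gene of 10 was called by edgeR, DESeq2 or limma (0 with an unadjusted p under 0.05), and Cd74, the invariant chain, was at 7160 and 9784 against 6574 and 7689 (0.25, adjusted p = 0.47). Of 25 macrophage transcription factors, the heme-induced Spic and Bhlhe41 were called higher, each lost without any of 3 libraries (ARM1, ARM2 and SM1 for Spic, ARM1, ARM2 and SM2 for Bhlhe41), and Spi1, which specifies the lineage, was at 0.12 (adjusted p = 0.68).

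Some programs leaned by small amounts in nearly all of their genes without a call. Their counts at an unadjusted p under 0.05 stand beside 1267 genes above 0 and 591 below 0 among all 12441 tested. Of 79 ribosomal protein genes tested, 2 lay above 0, the median was -0.18 on the log2 scale, and none was called by edgeR, DESeq2 or limma, though 29 had an unadjusted p under 0.05 and 7 an adjusted p under 0.05. Of 45 nuclear-encoded genes of the respiratory chain on the list, which does not hold Ndufa3, 3 lay above 0, with a median of -0.16, and none was called by edgeR (6 at an unadjusted p under 0.05, 0 by DESeq2 and limma). Left-out libraries moved this median from -0.26 without SM2 to -0.03 without SM1. The 22 markers of resident perivascular macrophages had 1 above 0 (median -0.16, 6 at an unadjusted p under 0.05, 0 called by edgeR, DESeq2 or limma), with Folr2, a folate receptor, at FPKM 1309 and 1221 against 1561 and 1515 (-0.28, adjusted p = 0.14). In the opposite direction, 34 of 39 cell cycle genes lay above 0 with a median of 0.25 (8 at an unadjusted p under 0.05, 0 called by edgeR, DESeq2 or limma). Here ARM1 led, and the median was 0.34 without ARM2 and 0.046 without ARM1. Of 29 genes of glycolysis and the pentose phosphate pathway, none was called by edgeR or DESeq2 and 1 by limma (5 at an unadjusted p under 0.05, median 0.061).

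**Figure D4:**
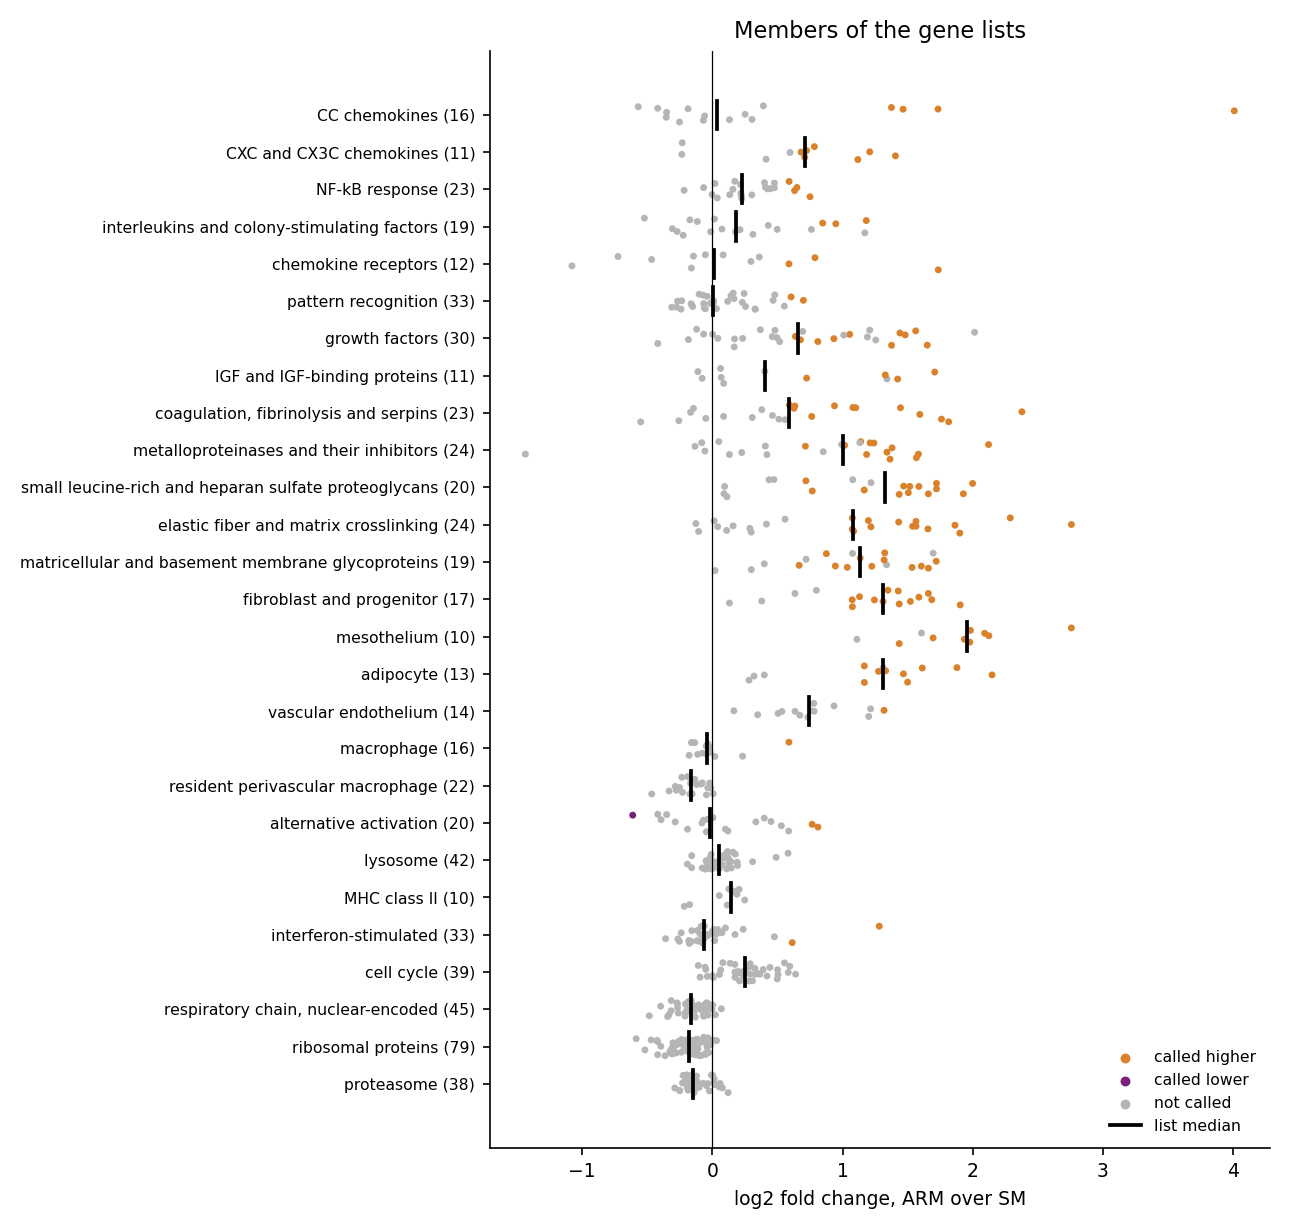
Each row is a gene list with the number of its genes tested, each point is a gene at its log2 fold change of ARM over SM, orange where called higher, purple where called lower and grey where not called, and the black bar is the median. The matrix, serpin and marker lists of stromal cells lie to the right, the CXC chemokines have a median of 0.71, and the ribosomal, respiratory chain and resident macrophage lists sit narrowly to the left of 0.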

How the data were processed

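RNA sequencing libraries of FACS-purified ARMs and SMs from eWAT of chow-fed mice were analysed, 2 per group. The authors extracted total RNA with Trizol and, per the labels, sequenced 200 ng and used genome build mm10. The aligner, counter and annotation are not given in the sources used here. The authors deposited estimated counts per gene and library without normalization, of which 8.55% to 9.36% were not whole, and FPKM scaled by gene length and library depth. The table of mice on high-fat diet was not used. It was not possible to tell whether the pools of one number shared animals.

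Counts were rounded, genes with low counts were removed with filterByExpr, and the groups were compared with TMM scaling and edgeR 4.0.16's quasi-likelihood test (R 4.3.3), with Benjamini-Hochberg adjustment over 12441 genes. Calls required more than a 1.5-fold difference and an adjusted p below 0.05. FPKM served for levels and was also tested with limma 3.58.1 on log2(FPKM + 1) or log2(FPKM + 0.1). DESeq2 1.42.0, other scalings and filters, a replicate block and leaving out each library were the alternatives. The test was checked on simulated data. Of 24 symbols that a spreadsheet had turned into dates, 24 were named by gene ID. Promoters were 150 bases before a RefSeq start of each gene (GRCm38.p6), which can lie inside the gene. Named genes were up to 6 called and 4 uncalled members of each of 68 lists, all genes called lower, the 20 with the smallest p and the 12 with the highest SM level outside the adhesion and lipid lists, 8 per class of ARM2 against ARM1, and defining markers of cell types. Of the genes called lower, 1 is not reported here. The members and lists were chosen with earlier results of these data known.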

Additional observations from a re-analysis of the deposited data

How the results depend on the processing

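Against 442 genes called higher and 16 lower, DESeq2 called 258 and 8, limma on log2(FPKM + 1) 202 and 12, and limma on log2(FPKM + 0.1) 208 and 11. Without a filter, limma called 0 and 0, with 1915 genes at an unadjusted p under 0.05, and edgeR called 587 and 40. A log2 fold change over 0.6 with an unadjusted p under 0.05 gave 794 and 94. Other scalings gave 449 to 460 higher and 15 to 19 lower. With 1 library left out, the counts ran from 171 (without ARM2) to 617 (without ARM1) higher and from 15 (without SM1) to 44 (without ARM1) lower. In those fits the group left with 1 library is assumed to vary like the other. No named gene that was called changed direction under these alternatives, and the cause of the other shifts was not tested.

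The replicate numbers were not tied to shared animals by the labels, and same-numbered libraries deviated together with a correlation of 0.265 over 11538 genes and only 2 pairs, so the libraries were taken to share a number only. With the number as a replicate block, 719 genes were called higher and 67 lower. Depth limits the genes with a mean SM FPKM under 1, which were 175 of the 442.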
